A study of Mus musculus with 38 samples.

Results

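Distal accessible regions whose ATAC-seq signal was higher after dDAVP were described in mouse cortical collecting duct. ATAC-seq marks open chromatin by the places where a transposase can insert adapters. The members were chosen by the deposited ATAC-seq values themselves: a peak had to be annotated as intron or intergenic, to have a mean log2 signal of 4 or more over both groups, and to have a log2 signal at least 0.5 higher in dDAVP than in saline ducts. These limits left 1759 gaining peaks among 65741 distal peaks of that signal and 270806 peaks in all, so that 2.68% of the distal peaks were members. Of the remaining distal peaks, 30880 were lower by 0.5 or more in dDAVP ducts and are called losing, and 33102 lay between the limits. Because the ATAC-seq contrast chose the members, their signal differences are given as a description without a test.

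All ATAC-seq libraries came from C57BL/6 mice that received dDAVP, a vasopressin analogue selective for the V2 receptor, or saline by infusion over 5 days, with 3 libraries in each group. Each of these libraries held 3 dissected ducts of 300 to 600 µm, and the deposited table gave only a mean per group, so the spread between libraries could not be seen. RNA-seq of dissected ducts had 4 dDAVP and 4 saline libraries, after infusion of the same length in the same strain. A second RNA-seq table held 4 units labelled MT, for a β-catenin S552 mutation, and 4 units labelled WT, each with 3 libraries. The labels of all 24 gave dDAVP as treatment and C57BL/6 as genotype, while the name of the table said that no vasopressin was given, so its treatment is uncertain. The title of dDAVP RNA-seq library 4 called it the dDAVP sample numbered 3. Nothing in the labels ties the libraries of a group to separate animals, and p-values then measure the spread between these samples, which may be technical.

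Distal accessible regions in introns and between genes include enhancers, stretches of DNA that bind transcription factors and act on the promoters of genes that can lie far away. In principal cells of the collecting duct, vasopressin acts through the V2 receptor, cyclic AMP and protein kinase A, and CREB-family factors that bind the cAMP response element are among the kinase's targets. AP-1, a dimer of Fos and Jun proteins, binds a similar element in many distal regions. The gene that an annotation program attaches to a distal peak is usually a near neighbour, and it need not be the gene on which the region acts.

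No genome sequence was used here, so sequence could be read only where a gaining peak reached into a RefSeq window running from 250 bases before to 50 bases after an annotated start (GRCm38.p6, the same build as mm10). This was the case for 21 of the 1759 gaining peaks, and 1028 of the 1409 gene names that gaining peaks carried matched a RefSeq window. The sequences below are the covered stretches of 6 of these peaks, picked after their values were seen: the strongest that reach protein-coding starts (Slc6a12 and Zfp648), that of Mir670hg, and stretches from a peak named Dusp1 (Gm34455), a peak named Bcat1 (Gm26666) and a peak named Ebf2 (Gm30438). The last is the start of Cdk18, the gene with the smallest p among those named, which lay under a losing peak. Capitals mark the short CRE TGACG or the AP-1 motif TGANTCA, on either strand, and stretches without capitals held neither. The printed stretches are a selection, and motif counts over all 21 are given after them. The peak named Ebf2 did not pass in the authors' deposited ATAC-seq table, with an adjusted p of 0.342.
Slc6a12 (chr6:121343138-121343437, plus strand): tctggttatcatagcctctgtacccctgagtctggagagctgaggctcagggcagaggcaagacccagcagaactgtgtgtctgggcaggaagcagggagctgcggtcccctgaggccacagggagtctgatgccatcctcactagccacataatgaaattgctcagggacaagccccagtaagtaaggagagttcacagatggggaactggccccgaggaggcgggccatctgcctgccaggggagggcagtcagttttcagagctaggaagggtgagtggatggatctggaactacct
Zfp648 (chr1:154201055-154201236, plus strand): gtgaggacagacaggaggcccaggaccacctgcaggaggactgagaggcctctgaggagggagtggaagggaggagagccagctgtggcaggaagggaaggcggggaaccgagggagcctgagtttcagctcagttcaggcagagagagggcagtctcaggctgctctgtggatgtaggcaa
Mir670hg (chr2:94265039-94265338, minus strand): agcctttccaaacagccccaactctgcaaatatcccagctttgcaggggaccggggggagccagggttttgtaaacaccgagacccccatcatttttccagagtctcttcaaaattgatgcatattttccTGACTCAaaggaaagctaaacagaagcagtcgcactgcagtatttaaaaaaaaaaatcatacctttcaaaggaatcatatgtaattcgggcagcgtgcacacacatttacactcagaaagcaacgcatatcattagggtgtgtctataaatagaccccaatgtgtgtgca
Gm34455 (chr17:26490854-26491153, minus strand): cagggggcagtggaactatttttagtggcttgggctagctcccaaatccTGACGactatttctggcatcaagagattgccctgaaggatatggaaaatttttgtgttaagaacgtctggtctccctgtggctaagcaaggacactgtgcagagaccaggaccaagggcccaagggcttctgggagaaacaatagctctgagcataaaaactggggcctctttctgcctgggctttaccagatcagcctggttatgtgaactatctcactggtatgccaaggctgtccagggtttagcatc
Gm26666 (chr6:145047380-145047608, plus strand): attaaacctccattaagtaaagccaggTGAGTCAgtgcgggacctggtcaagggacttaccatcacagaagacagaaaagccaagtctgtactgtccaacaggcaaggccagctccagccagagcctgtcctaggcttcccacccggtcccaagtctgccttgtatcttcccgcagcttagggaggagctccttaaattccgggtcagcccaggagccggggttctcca
Gm30438 (chr14:67158913-67159199, plus strand): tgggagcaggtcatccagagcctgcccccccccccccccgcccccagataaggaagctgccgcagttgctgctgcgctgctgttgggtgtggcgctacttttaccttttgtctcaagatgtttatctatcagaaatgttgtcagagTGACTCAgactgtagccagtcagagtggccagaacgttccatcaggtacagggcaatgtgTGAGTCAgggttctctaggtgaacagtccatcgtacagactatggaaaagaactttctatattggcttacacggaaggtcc
Cdk18 (chr1:132139636-132139935, minus strand): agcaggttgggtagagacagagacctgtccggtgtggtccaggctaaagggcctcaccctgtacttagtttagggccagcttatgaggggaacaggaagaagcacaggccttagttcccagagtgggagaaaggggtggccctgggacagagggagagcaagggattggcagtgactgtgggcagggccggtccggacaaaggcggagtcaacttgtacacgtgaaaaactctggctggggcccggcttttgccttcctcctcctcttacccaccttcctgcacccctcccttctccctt

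The AP-1 motif was found in 5 of the 21 covered stretches, beside 7.81% of all 32851 RefSeq windows, and the short CRE in 3 of 21, beside 20.8% of all windows. The full CRE TGACGTCA was in none of the 21, beside 1.79% of all windows. The SP1 motif GGGCGG was in 1 of 21, beside 35.7% of all windows. The covered stretches were 28 to 300 bases long, most carried the Gm names of predicted genes, and the short CRE is contained in the full CRE. In the RefSeq windows of genes named by gaining peaks, 1306 in number, the AP-1 motif was in 7.04%, the SP1 motif in 49.8%, the short CRE in 23.4% and the full CRE in 2.14%. A match is a string of letters, not a bound site.

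The peak over the Slc6a12 start, a betaine and GABA transporter that takes up an osmolyte in the renal medulla, had a log2 signal of 6.87 in dDAVP ducts and 6.20 in saline ducts. The peak at Zfp648, a zinc-finger gene, had 7.01 in dDAVP ducts and 5.82 in saline ducts, and that at Mir670hg, a microRNA host gene, had 7.02 in dDAVP ducts and 6.22 in saline ducts. RNA of the protein-coding genes with a covered start was low in the second table: Slc6a12 averaged 2.82 ± 2.07 TPM in MT and 3.23 ± 4.70 TPM in WT units, and Zfp648 averaged 0.0342 ± 0.0134 TPM in MT and 0.0792 ± 0.0901 TPM in WT units (SD, n = 4 each). Neither was listed in the dDAVP RNA table, which held only genes above 10 TPM in every library.

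Gaining peaks were weak peaks for the most part. Their median log2 signal was 4.91 in dDAVP ducts and 4.09 in saline ducts, and 767 of 1759 (43.6%) were below 4 in saline ducts. The median difference was 0.72, with quartiles of 0.59 and 0.97 and a highest value of 3.58. Over all 65741 distal peaks the median difference was −0.48, so the members were set against a table in which most distal peaks were lower in dDAVP ducts. In the authors' deposited table, 569 of the 1759 members (32.3%) were higher in dDAVP ducts at an adjusted p under 0.05, beside 0.876% of all distal peaks of this signal, a share fixed in part by the rule itself. The difference was 0.5 to 0.75 in 970 members, 0.75 to 1 in 382, 1 to 1.5 in 306, 1.5 to 2 in 81 and larger in 20. At the limit of the rule, 258 members had a difference of 0.50 to 0.55, with a median of 0.53, and 300 peaks just outside had 0.45 to 0.50, with a median of 0.47.

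The share of distal peaks that gained fell with peak strength. It was 5.45% of peaks with a mean log2 signal of 4 to 4.5 (802 of 14721) and 2.58% of those of 5 to 5.5 (263 of 10179). Of the peaks at 7 or more, 0.129% were members (12 of 9295). Gaining peaks were also wider than other distal peaks of the same strength. At a signal of 4 to 4.5 the median width was 454.5 bp for gaining, 339 bp for intermediate and 264 bp for losing peaks, and at 6 to 7 it was 933 bp for gaining, 764 bp for intermediate and 615 bp for losing peaks. Over all strengths the median width was 538 bp for gaining peaks, with quartiles of 416 and 701 bp, and 477 bp for the other distal peaks, with quartiles of 296 and 740 bp. Peaks of 1 table share their libraries and are not replicates, so these differences in width and position carry no test.

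**Figure D1:**
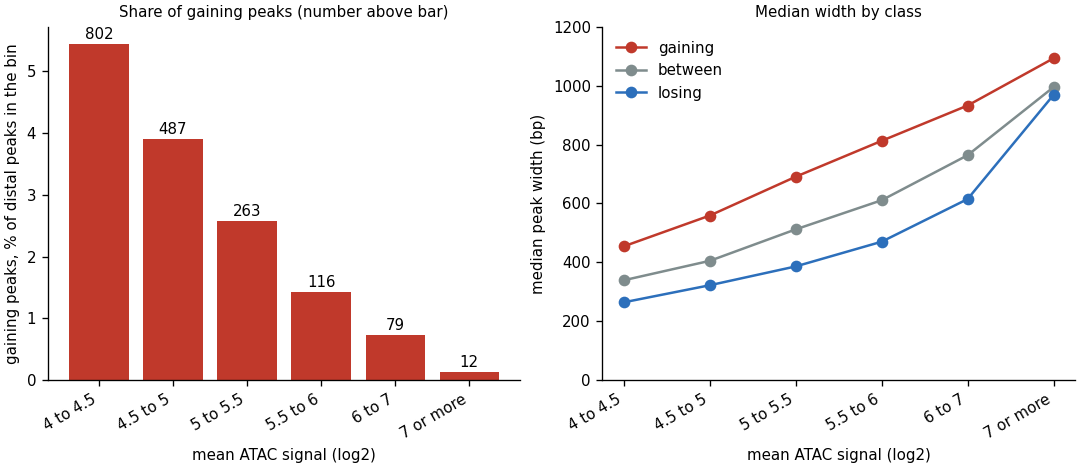
Left, gaining peaks as a percentage of distal peaks in each bin of mean log2 ATAC-seq signal, with their number above each bar; right, median width in bp of gaining, intermediate and losing peaks in the same bins. The share falls from the weakest bin (5.45%) to the strongest (0.129%), and the gaining peaks have the highest median width in each of the 6 bins.

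Gaining peaks lay far from annotated starts. The median distance from a peak's centre to the nearest RefSeq start was 30792 bp for the 1674 gaining peaks that could be placed, and 17449 bp for the other distal peaks. Within 2000 bp of a start lay 4.24% of gaining peaks and 13.4% of the others, and beyond 50000 bp lay 36.4% of gaining peaks and 22.6% of the others. In every bin of strength the median distance of gaining peaks was larger than that of intermediate and of losing peaks, with 32699 bp for gaining, 23045 bp for intermediate and 16087 bp for losing peaks at a signal of 4 to 4.5. The remaining 85 members were on chromosome 18 or on an unplaced scaffold, for which no start was used here.

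**Figure D2:**
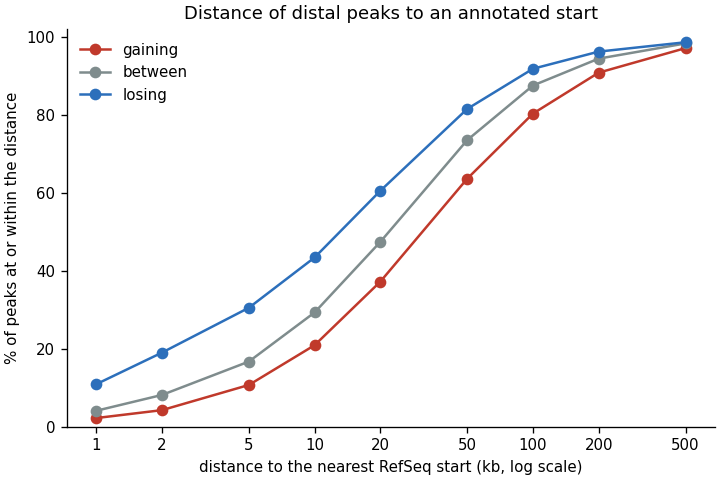
Cumulative percentage of gaining, intermediate and losing distal peaks (vertical axis) at or within a given distance of the nearest RefSeq start (kb, log scale). At 10 kb the curves stand at 20.9% for gaining, 29.3% for intermediate and 43.4% for losing peaks, and the gaining curve is the lowest at each of the 9 distances shown.

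By annotation, 934 members were in introns and 825 were intergenic. Introns held 53.1% of gaining peaks and 61.0% of the other distal peaks. The first intron, which often carries regulatory sequence near a promoter, held 25.7% of the gaining intron peaks (240 of 934) and 46.4% of the other intron peaks. Among numbered chromosomes and X, the share ran from 1.36% of the distal peaks on chromosome X (13 of 957) to 3.27% on chromosome 9 (112 of 3423). The exception was the unplaced scaffold JH584304, where 24 of 29 distal peaks gained (82.8%), all named Pisd-ps3, a pseudogene. Without the scaffold there were 1735 members, 53.8% of them in introns, with a median width of 541 bp.

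The strongest gaining peak lay 4143 bp before the start of Aqp5, a water channel, in the interval between Aqp2 and Aqp5 (mm10 chr15:99585782-99587989). Its log2 signal was 9.89 in dDAVP ducts and 8.94 in saline ducts. In the same interval, 2 short intergenic peaks beside it, of 115 and 132 bp, had differences of 0.35 each, and 2 more, of 88 and 180 bp and nearer to Aqp5, had −0.41 and −0.83. The Aqp5 promoter peak had 6.27 in dDAVP ducts and 7.11 in saline ducts. Aqp5 RNA averaged 0.593 ± 0.259 TPM in MT and 0.386 ± 0.082 TPM in WT units (SD, n = 4 each) and was not listed in the dDAVP table. Aqp2, the vasopressin-regulated water channel on the other side of the peak, was named by no gaining peak. It had 51770 to 72250 TPM in the 4 dDAVP libraries and 18070 to 21870 TPM in the 4 saline libraries, and the log2 difference was 1.59 ± 0.18 (SE; limma adjusted p = 0.0028).

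The next 9 peaks by strength were mostly in introns. The peak named Pdcd4, a translation inhibitor, lay in intron 7 of Rbm20, a splicing factor gene, 55552 bp from the Pdcd4 start, with a log2 signal of 8.17 in dDAVP ducts and 7.48 in saline ducts. Peaks in introns of Glis1, a Krüppel-like transcription factor, and of Chn2, a Rac GTPase-activating protein, had 7.84 and 7.59 in dDAVP ducts, against 7.21 and 7.06 in saline ducts. Peaks in introns of Camta1, a calmodulin-binding transcription activator, and of Mad1l1, a spindle checkpoint gene, had the largest differences of the 10, 1.05 and 1.19. The others, in Fmn2 (an actin nucleator) and Plcb1 (a phospholipase C) and near Ctnnbl1 (a spliceosome-associated protein) and Rtl6 (a retrotransposon-derived gene), had differences of 0.52 to 0.66. Levels of these genes spanned a wide range in WT units, from 0.238 ± 0.0861 TPM for Fmn2 to 64.6 ± 4.47 TPM for Pdcd4 (SD, n = 4).

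The 10 largest differences belonged to weaker peaks, with mean log2 signals of 4.13 to 5.71. The largest was an intergenic peak 12080 bp from the start of Egf, which encodes epidermal growth factor and is a product of the thick ascending limb and distal convoluted tubule. It had a log2 signal of 5.17 in dDAVP ducts and 1.59 in saline ducts. The Egf promoter peak had 7.38 in dDAVP ducts and 8.01 in saline ducts, and Egf RNA ranged from 2.19 to 32.8 TPM in MT units and from 3.08 to 553 TPM in WT units. Second was a peak 107902 bp from Col1a2, a fibrillar collagen of fibroblasts, with 6.05 in dDAVP ducts and 2.81 in saline ducts, and another peak named Col1a2 had 5.07 in dDAVP ducts and 2.87 in saline ducts. Col1a2 RNA averaged 0.884 ± 0.649 TPM in MT and 0.868 ± 0.305 TPM in WT units (SD, n = 4 each). The others were named Lrrtm1 (a synaptic adhesion protein), 1700056E22Rik, Zfp236 (a zinc-finger gene), St8sia6 (a sialyltransferase), 4930413E15Rik, 4933416E03Rik and Ppp1r1a (a protein phosphatase inhibitor that PKA activates), with differences between 2.23 and 2.98. The tenth, with 6.44 in dDAVP ducts and 4.18 in saline ducts, lay in an intron of Fbxl7, an F-box gene, and carried the number 44631 in place of a gene name.

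Some gaining peaks came in runs. The 24 members on the scaffold, all within 66645 bp of its first base, are set aside here, which leaves 1735. With gaps of at most 50000 bp between neighbours, 37 runs held 3 or more members (136 in all), 142 pairs held 2, and 1315 members stood alone. Counting each peak once, 678 distal peaks lay within 5000 bp of another peak that gained, of which 13.4% were members and 18.4% were losing, with a median difference of −0.13. Within 50000 bp there were 6940, of which 6.05% were members and 35.4% were losing, with a median of −0.37. Of all 65741 distal peaks of this signal, 2.68% were members and 30880 were losing, with a median of −0.48. A run was cut at its first and last member, so both ends gained by construction, which raises the shares given below. In the run named Bcat1, after a branched-chain amino acid transaminase, 7 of 8 distal peaks over 56124 bp gained by 0.56 to 1.08. In the run named Mad1l1 all 6 distal peaks over 117557 bp gained by 0.77 to 1.30. In Chn2, 6 of 9 distal peaks gained by 0.53 to 1.29 and the other 3 had differences of 0.30 to 0.33. Outside the Chn2 run, 6 distal peaks within 50000 bp had a median of −0.30. Around other runs of 5 or more members this median was −0.42 for Rnf24, −0.23 for Cryaa and Sik1, −0.20 for Dmrtb1 and −0.10 for Mad1l1. It was above 0 for Bcat1 (0.06), Scarf2 (0.22) and Camta1 (0.42, 1 peak). Near Dmrtb1, a DM-domain transcription factor gene, 6 of 7 gained by 0.52 to 1.82 and the other had −0.10. Of 5 peaks between the names Cryaa and Sik1, a salt-inducible kinase that cAMP induces, all gained, by 0.69 to 1.20, and of 7 at Slc9a3 and Cep72, a sodium-proton exchanger and a centrosomal gene, 5 did.

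**Figure D3:**
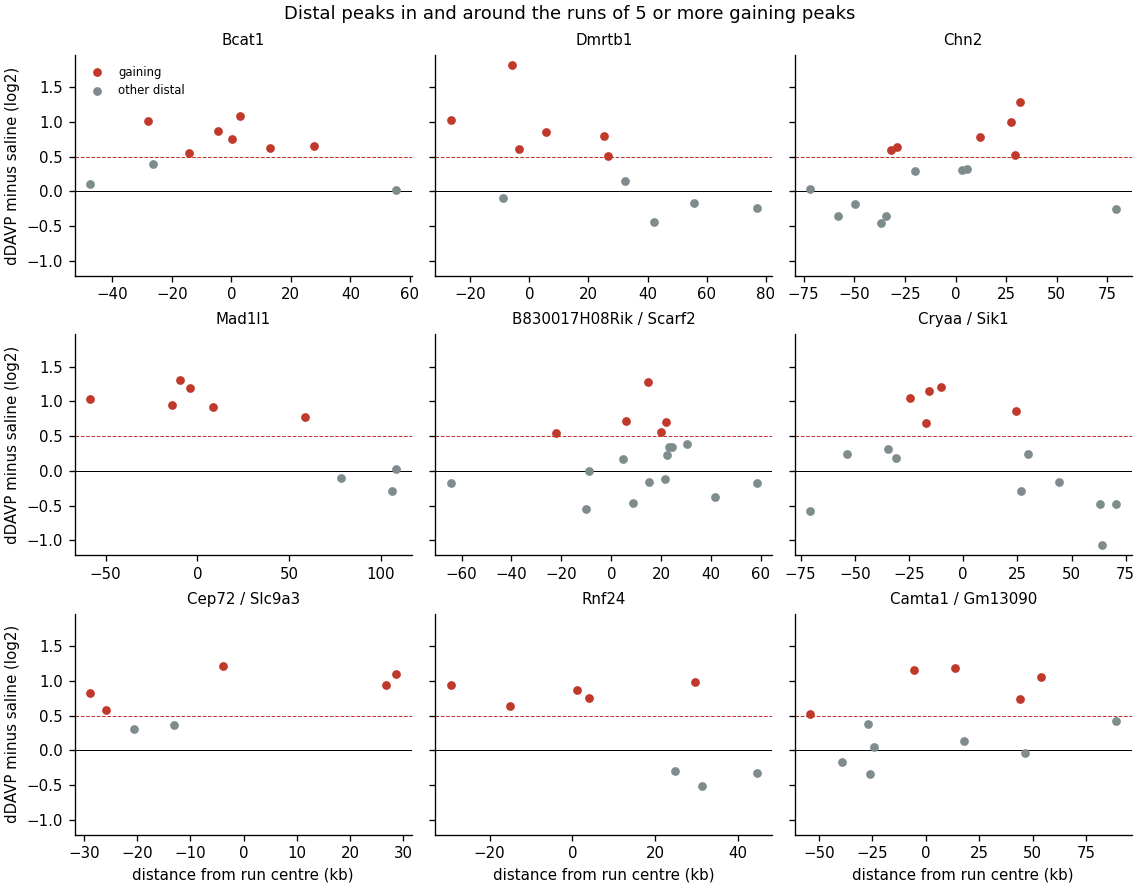
Difference in log2 ATAC-seq signal, dDAVP minus saline (vertical axis), of distal peaks against distance in kb from the centre of each of the 9 runs with 5 or more gaining peaks on the placed chromosomes, from 50 kb before to 50 kb after the run. Red points are gaining peaks, grey points other distal peaks, the dashed line the limit of 0.5 and the solid line no difference; the red points of Mad1l1 and of Cryaa and Sik1 stand with no grey point inside the run.

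Few genes in and around these runs were listed. Of all genes that overlapped or lay within 50000 bp of a run of 3 or more members, 10 were listed in the dDAVP RNA table, and 1 of them passed limma, beside 0.695% of all 5035 genes tested. This was Car15, a membrane carbonic anhydrase, which lay 5475 bp from a run where 5 of 11 distal peaks gained and 1 was losing, named Scarf2 and B830017H08Rik. Car15 averaged 7701 TPM in dDAVP and 1553 TPM in saline libraries, with ranges of 6693 to 9362 TPM in dDAVP and 1430 to 1863 TPM in saline libraries, which do not overlap. Its log2 difference was 2.31 ± 0.16 (SE; limma adjusted p = 4.82e-05). The other 9 had log2 differences from −0.59 (Itch) to 0.78 (Pdcd4). Bcat1 averaged 3.12 ± 1.78 TPM in MT and 1.26 ± 1.08 TPM in WT units, and Dmrtb1, Cryaa and Rnf24 averaged under 2 TPM in both.

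The name given to a gaining peak and the gene it lay in often differed. Of 933 intron members whose transcript could be matched, 614 (65.8%) were named for the gene that held the intron. Members carried 1409 gene names, of which 234 were named by 2 or more members, 229 were predicted models and 64 were microRNAs, and 7 members carried a number in place of a name. Of the 1409 names, 896 (63.6%) also had a losing distal peak, beside 10308 of all 14213 names with a distal peak of this signal, a larger share. These 896 were 8.69% of the 10308 names with a losing peak. At the promoters of the named genes most peaks were lower in dDAVP ducts: of 702 promoter peaks, 467 (66.5%) were lower by 0.5 or more and 7 (0.997%) were higher by that much. Among all 10308 promoter peaks of this signal 74.99% were lower and 0.310% were higher.

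The RNA of named genes came from other libraries and was not used to choose the peaks. Of 1409 names, 236 were listed in the dDAVP RNA table, and the others could not be compared. In WT units of the second table, 56.9% of the 1374 matched names had 1 TPM or more and 37.0% had 10 TPM or more, beside 70.0% and 50.6% of the names with a losing peak. Of the 236 listed, 4 were higher in dDAVP ducts by limma at an adjusted p under 0.05 (1.69%), beside 0.556% of all 5035 genes, and none was lower, beside 0.139% of all genes. At an unadjusted p under 0.05 there were 39 of 236 (16.5%), beside 11.0% of all genes. The 4 dDAVP libraries did not overlap the 4 saline libraries in 28 of the 236 (11.9%), beside 8.58% of all genes. The median log2 difference of the 236 was −0.02 and 48.7% were above 0, beside −0.06 and 43.6% for all genes and −0.08 and 41.5% for the 2989 listed names with a losing peak. Restricting the names to the 569 members that passed the authors' threshold left 76 listed genes, 3 of them called, with a median of 0.03. Names with 2 or more members (40 listed) had no call and a median of −0.02. Names without a losing peak (41 listed) had no call and a median of −0.07, so all 4 calls were among the 195 with one. Taking the gene of the nearest start gave 3 calls among 148 listed (2.03%), and taking the host gene for intron peaks gave 3 among 255 (1.18%). Names with a member within 10 kb of the named start (39 listed) had a median of 0.08 and no call, and names whose members all lay beyond 50000 bp (54 listed) had a median of −0.14 and 1 call. In bulk ducts, more transcript per cell and more cells of a type cannot be told apart.

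**Figure D4:**
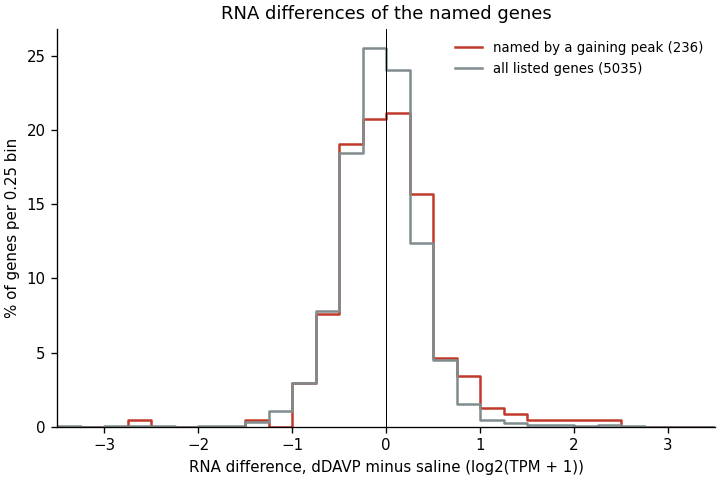
Percentage of genes in bins of 0.25 (vertical axis) against the RNA difference, dDAVP minus saline, on the log2(TPM + 1) scale, for the 236 listed genes named by a gaining peak and for all 5035 listed genes. The medians are −0.02 for the named genes and −0.06 for all genes, and both curves peak next to 0.

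Cdk18, a cyclin-dependent kinase that acts on ubiquitination and phosphorylation of aquaporin-2, had 177.6, 177.3, 126.0 and 183.3 TPM in dDAVP libraries, against 32.24, 32.55, 47.83 and 18.98 TPM in saline libraries. Every dDAVP library was above every saline library. The means were 166 ± 26.9 TPM with dDAVP and 32.9 ± 11.8 TPM with saline (SD, n = 4 each), and the log2 difference was 2.35 ± 0.29 (SE; limma adjusted p = 0.00345). The gaining peak that carried its name was intergenic, 379 bp wide and 32859 bp from the Cdk18 start, beyond the far end of the gene (mm10 chr1:132106637-132107015), with a log2 signal of 4.81 in dDAVP ducts and 3.63 in saline ducts. Of all 65741 distal peaks of this signal, 30880 were losing, the share against which counts at single genes are read. This gaining peak was the 1 member among 17 distal peaks named Cdk18, and 8 of the others were losing. They included the 1417 bp peak over the start printed above, with 8.59 in dDAVP ducts and 9.12 in saline ducts.

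Ache, the acetylcholinesterase gene, had 239.6, 303.9, 301.8 and 240.0 TPM in dDAVP libraries, against 62.92, 47.96, 74.66 and 124.8 TPM in saline libraries. The groups did not overlap, and saline library 4 was the highest of its group. The log2 difference was 1.87 ± 0.27 (SE; limma adjusted p = 0.011), and without dDAVP library 3 the adjusted p was 0.0596. Its 4 distal peaks and its promoter peak differed by position: the peak 19574 bp before the start had 7.33 in dDAVP ducts and 6.53 in saline ducts, and the next, at 10406 bp, had 7.51 in dDAVP ducts and 7.39 in saline ducts. At 1096 bp before the start the difference was −0.32, at the promoter −0.50 and in the first intron −0.67. The first of these was thus the 1 member.

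Ctsh, the lysosomal protease cathepsin H, had 621.7, 647.0, 742.6 and 516.4 TPM in dDAVP libraries, against 246.6, 340.8, 258.2 and 304.2 TPM in saline libraries. The groups did not overlap. The log2 difference was 1.13 ± 0.17 (SE; limma adjusted p = 0.011), and without dDAVP library 3 the adjusted p was 0.0596. The gaining peak of that name lay in intron 15 of Rasgrf1, a Ras exchange factor, with 5.04 in dDAVP ducts and 4.47 in saline ducts. This peak did not pass in the authors' deposited ATAC-seq table, with an adjusted p of 0.271. The gaining peaks named Ache, Cdk18 and Dab1 had 0.00038, 0.0277 and 0.0382 there. Of the 4 other distal peaks named Ctsh, 3 of them in its own introns, 2 were losing and none gained.

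Dab1, an adaptor of reelin signalling, had 111.6, 105.7, 130.0 and 96.54 TPM in dDAVP libraries, against 25.25, 25.57, 13.14 and 56.25 TPM in saline libraries. All dDAVP libraries were above all saline libraries, of which library 4 was the highest. The log2 difference was 2.02 ± 0.37 (SE; limma adjusted p = 0.031), and the adjusted p was between 0.0836 and 0.147 when dDAVP library 1, 2, 3 or 4 or saline library 1 or 2 was left out. Dab1 had 26 distal peaks along its introns, of which 1 gained, 6 were losing and the rest had differences between −0.42 and 0.47. The gaining peak, 137847 bp from the nearest Dab1 start, had 5.85 in dDAVP ducts and 5.18 in saline ducts, and the promoter peak had 8.31 in dDAVP ducts and 8.88 in saline ducts. For these 4 genes the adjusted p in the authors' deposited table was 0.00243 for Cdk18, 4.52e-05 for Ache, 0.00187 for Ctsh and 0.000102 for Dab1. In the same table Aktip, which did not pass limma, had an adjusted p of 0.0112.

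**Figure D5:**
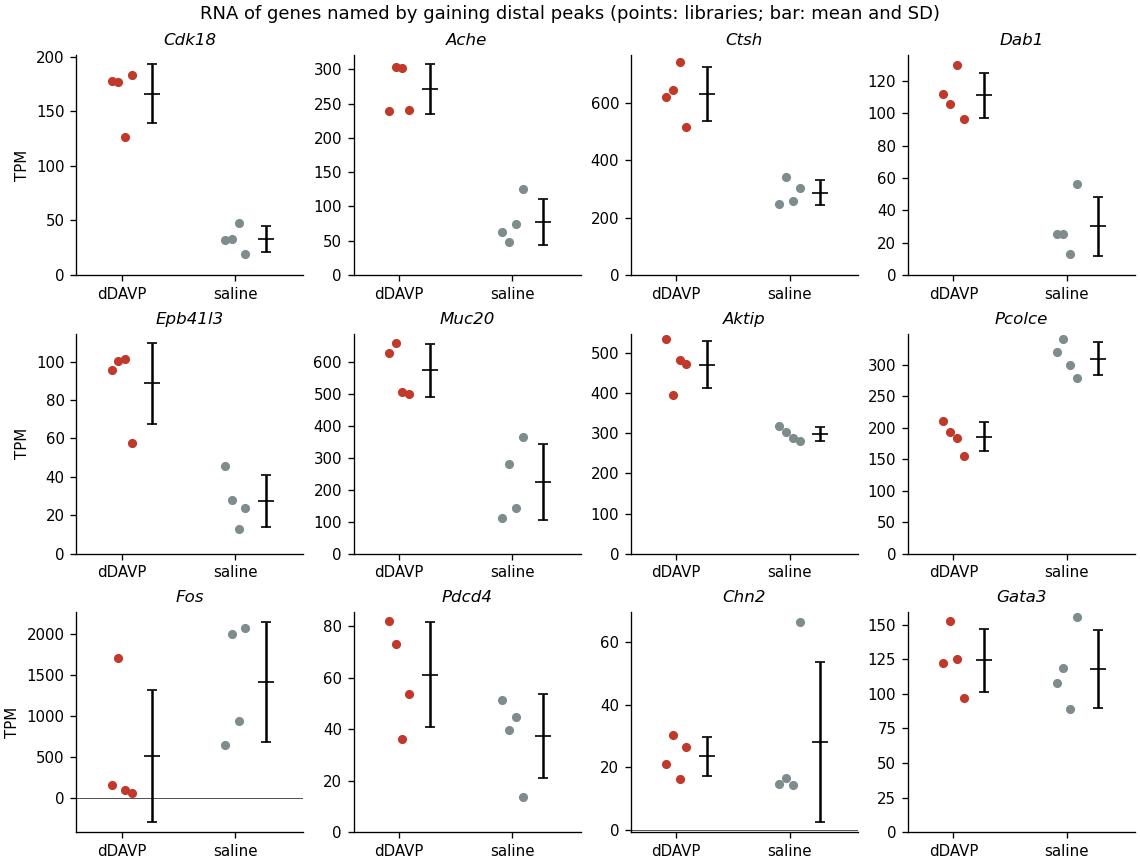
TPM in each dDAVP (left) and saline (right) library for 12 genes named by gaining peaks, with the mean and SD beside the points. In the 8 panels of the upper 2 rows, which show genes chosen by small p, the groups do not overlap (8.58% of all listed genes do not), Pcolce being the 1 lower with dDAVP; in the bottom row (Fos, Pdcd4, Chn2, Gata3) they overlap.

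The 10 further genes of smallest unadjusted p did not pass. Epb41l3, a membrane skeleton protein, had 95.52, 100.3, 101.4 and 57.41 TPM in dDAVP libraries, against 45.55, 27.68, 12.87 and 23.87 TPM in saline libraries, with a log2 difference of 1.75 ± 0.37 (SE; limma adjusted p = 0.0755). Muc20, a membrane mucin, had 499.5 to 659.4 TPM in dDAVP and 112.6 to 364.9 TPM in saline libraries, and its member lay in an intron of Muc20 itself, 6259 bp from the start. Aktip, a telomere and vesicle trafficking protein, had 395.3 to 535.3 TPM in dDAVP and 280.9 to 319.1 TPM in saline libraries and was named by 2 members, 25116 and 30554 bp to either side of its start. Pcolce, an enhancer of procollagen processing, had 156.1 to 211.1 TPM in dDAVP and 279.7 to 340.7 TPM in saline libraries, with a log2 difference of −0.74 ± 0.16 (SE; limma adjusted p = 0.0758). In these 4 the groups did not overlap, as their choice by smallest p makes likely. Ywhah (a 14-3-3 protein), Rcn1 (a calcium-binding protein of the endoplasmic reticulum), Atp9a (a phospholipid flippase), Rsph9 (a ciliary radial spoke protein) and Map1lc3a (an autophagosome protein) had log2 differences of 0.88 to 1.31, and Ngef had −0.79. The groups overlapped for Map1lc3a.

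Of all 14213 names with a distal peak of this signal, 1409 (9.91%) were named by a gaining peak, the share against which the gene lists are read. A name with many distal peaks can be named more easily, and the shares were not adjusted for this. Of 26 genes for actin and trafficking around AQP2, 20 had a distal peak and 7 of these (35%) were named. Each of the 7 had 1 member, among 7 distal peaks for Rab11a and Rab11fip2 and up to 71 for Nedd4l. Of the 19 listed in the RNA table Cdk18 passed and was higher and none was lower, with a median log2 difference of 0.09 for the list. Rab11a, a GTPase of recycling endosomes, had 307.8 to 390.3 TPM in dDAVP and 211.4 to 379.0 TPM in saline libraries, and Nedd4l, a ubiquitin ligase of the sodium channel, had 135.0 to 264.4 TPM in dDAVP and 133.9 to 221.0 TPM in saline libraries. The groups overlapped for both. The peak named Myo5c, a myosin V, lay in an intron of the neighbouring Myo5a, with 5.72 in dDAVP ducts and 4.84 in saline ducts, and the peak in Sipa1l1, a Rap GTPase-activating protein, was strong, with 6.30 in dDAVP ducts and 5.78 in saline ducts. Mylk (myosin light chain kinase) and Rab11fip2 (a Rab11 effector) had 1 member each and were not listed.

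Of 29 genes for cAMP and PKA signalling, 26 had a distal peak and 3 of these (11.5%) were named, near the share of all names, and none of 10 listed passed limma, with a median of 0.04. Adcy5, an adenylyl cyclase, had 2 members in its first intron, the stronger with 6.58 in dDAVP ducts and 5.93 in saline ducts. Pde1a, a calmodulin-dependent phosphodiesterase, had 165.5 to 228.4 TPM in dDAVP and 157.3 to 214.8 TPM in saline libraries, and Akap13, a kinase anchoring protein, was not listed. Of 24 genes of the CREB family and CREB targets, 20 had a distal peak and 4 of these (20%) were named, by 8 members: Fos, Dusp1, Pck1 and Sik1. Of 10 listed, Crem and Stc1 passed and were higher and Id2 passed and was lower, and no member named any of these 3.

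Fos, an AP-1 subunit and immediate early gene, had 151.9, 1715, 96.75 and 60.03 TPM in dDAVP libraries, against 643.3, 2001, 937.6 and 2076 TPM in saline libraries. The groups overlapped because dDAVP library 2 was high. The log2 difference was −2.66 ± 0.85 (SE; limma adjusted p = 0.26), and −3.70 with an adjusted p of 0.00496 without dDAVP library 2. Of 19 distal peaks named Fos, 17 were losing and 2 gained, those farthest from the start on either side, at 39231 and 53325 bp. Dusp1, a MAP kinase phosphatase, had 53.53 to 369.9 TPM in dDAVP and 32.01 to 578.0 TPM in saline libraries, with library 2 the highest of both groups. Its 2 members lay 17310 and 19395 bp from its start, and the nearer, printed above, had 5.54 in dDAVP ducts and 4.13 in saline ducts. Pck1, the gluconeogenic carboxykinase of proximal tubule, had 34.07 to 213.8 TPM in dDAVP and 27.44 to 562.0 TPM in saline libraries, and its 2 members had differences of 0.64 and 1.68.

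Genes that mark the duct's own cells are read against the same share of 9.91%. Of 16 principal cell genes, Gata3 and Nr3c2 were named (12.5%), and of 15 listed 2 passed and were higher (Aqp2 and Aqp3) and 1 was lower (Scnn1a). Gata3, a transcription factor of the duct, had 97.01 to 152.4 TPM in dDAVP and 88.85 to 155.5 TPM in saline libraries, and Nr3c2, the mineralocorticoid receptor, had 13.10 to 35.62 TPM in dDAVP and 24.24 to 36.77 TPM in saline libraries. The groups overlapped for both. The Gata3 member lay 304214 bp from the start, with 5.82 in dDAVP ducts and 4.94 in saline ducts. Of 22 collecting duct transcription factors, Klf5, a Krüppel-like factor, was the third named (13.6%), with 3 members of differences 0.62 to 1.32, and none of the 10 listed passed. Of 10 shared intercalated cell genes Slc12a2, a sodium-potassium-chloride cotransporter, was named, and of 9 listed Car15 was higher and Car12 lower. Of 5 type A genes Dmrt2, a transcription factor, was named, with 54.64 to 110.9 TPM in dDAVP and 42.05 to 121.3 TPM in saline libraries, and of 5 type B genes none was. None of the 5 type A and 4 type B genes listed passed limma, with median log2 differences of 0.16 for type A, −0.98 for type B and −0.53 for the shared genes. The type B genes summed to 723.2 to 1168 TPM in dDAVP and 1665 to 2309 TPM in saline libraries, without overlap. The principal cell genes summed to 70870 to 94590 TPM in dDAVP and 32770 to 36620 TPM in saline libraries, also without overlap. Most of the principal cell sum was Aqp2 alone, with 51770 to 72250 TPM in dDAVP and 18070 to 21870 TPM in saline libraries. The median log2 difference of the 15 listed principal cell genes was 0.02. The part of such shifts in the gaining peaks was not tested.

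Markers of other kidney cells were named as well. Of 41 such markers, 29 had a distal peak and 4 of these (13.8%) were named, by 7 members: Cubn and Kap of proximal tubule, Flt1 of endothelium and Col1a2 of fibroblasts. Of the 41, 9 were listed with dDAVP RNA values, none passed limma and 3 had an unadjusted p under 0.05, beside 11.0% of all genes. Kap had 815.3, 1609, 2275 and 8672 TPM in dDAVP libraries, against 1734, 3797, 1924 and 228.4 TPM in saline libraries, and the groups overlapped. The 2 listed proximal tubule markers, Slc34a1 and Kap, summed to 859.5 to 8889 TPM in dDAVP and 255.6 to 4224 TPM in saline libraries. The 2 of thick ascending limb, Umod and Kcnj16, summed to 205.1 to 5446 TPM in dDAVP and 226.5 to 950.9 TPM in saline libraries. The 2 listed endothelial markers, Emcn and Plvap, summed to 161.1 to 423.8 TPM in dDAVP and 110.8 to 201.7 TPM in saline libraries. Each of the other cell types had only 1 listed marker. Dcn of fibroblasts had 40.64 to 69.87 TPM in dDAVP and 25.14 to 116.5 TPM in saline libraries. Cd74 of leukocytes had 146.6 to 964.5 TPM in dDAVP and 49.37 to 695.6 TPM in saline libraries. Calb1 of distal convoluted and connecting tubule had 283.7 to 479.6 TPM in dDAVP and 397.4 to 693.8 TPM in saline libraries. In WT units none of the 41 was at 0, the lowest mean was 0.149 TPM (Col1a1), and 17 were above 10 TPM. Whether other cells contributed to the gaining peaks was not tested, since the ATAC-seq table holds group means only.

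In the second RNA table, which compares a β-catenin mutation and not dDAVP, 782 of the names had a mean TPM of 1 or more. None passed limma at an adjusted p under 0.05, beside 0% of all 15013 genes tested, and 31 of the 782 (3.96%) had an unadjusted p under 0.05, beside 4.55% of all genes. Their median log2 difference was 0.00, beside 0.01 for all genes. Cdk18 averaged 39.1 ± 17.5 TPM in MT and 30.8 ± 5.69 TPM in WT units, Ache 96.0 ± 27.4 TPM in MT and 118.7 ± 29.9 TPM in WT units, Ctsh 266.5 ± 52.1 TPM in MT and 259.8 ± 66.5 TPM in WT units, and Dab1 50.6 ± 18.7 TPM in MT and 50.3 ± 16.0 TPM in WT units (SD, n = 4 each). Differences of the 4 were within the spread between units.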

How the data were processed

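The authors deposited an ATAC-seq table of 270806 peaks with the log2 mean signal of each group, a log2 fold change and a p-value and adjusted p-value, and 2 RNA-seq tables in TPM. Bowtie2, MACS2, DiffBind, cutadapt 3.4, STAR and RSEM were named with build mm10 in the submitters' processing notes, without settings. In the deposited values every gene of the dDAVP RNA table exceeded 10 TPM in each of 8 libraries, so low genes are missing. TPM and group means keep no depth, so depth is unknown.

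Here log2(TPM + 1) was tested with limma 3.58.1 (eBayes, trend; R 4.3.3), two-sided, with Benjamini-Hochberg adjustment over each table, after a mean TPM minimum of 1 in the β-catenin table, whose 3 libraries per unit were averaged. The script was tested on simulated data. Introns were given their host gene through RefSeq transcripts. Genes named in the text passed limma, had the 10 next smallest p, headed the 10 strongest or 10 largest differences, had the most members, or belonged to a fixed list. Printed sequences come from RefSeq windows because the planned reading of peak centres needs a genome, and the motif searches in whole peaks were not run. The members and lists were chosen with earlier results of these data known.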

Additional observations from a re-analysis of the deposited data

Results flagged for a closer look

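In 6 of 52 groups of 4 RNA libraries (26 named genes listed in the dDAVP RNA table, dDAVP and saline), 1 library stood apart from the other 3 by Dixon's ratio, the gap to the nearest library over the range of the group, past the 95% limit. Chance gives about 1 such group in 20. Cdk18 was lowest in dDAVP library 3, with 126.0 TPM beside 177.3 to 183.3 TPM in the other dDAVP libraries (ratio 0.895), and this library was still above every saline library. Epb41l3 was lowest in dDAVP library 4, with 57.41 TPM beside 95.52 to 101.4 TPM (ratio 0.866), again above every saline library. Library 2 was highest in 3 groups: Fos with dDAVP (1715 TPM, ratio 0.945), Dusp1 with dDAVP (369.9 TPM, ratio 0.908) and Dmrt2 with saline (121.3 TPM, ratio 0.954). Chn2 was highest in saline library 4, with 66.38 TPM beside 14.39 to 16.44 TPM (ratio 0.961).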

How the results depend on the processing

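The 4 calls among genes named by gaining peaks stayed 4 with a pseudocount of 0.1 or 5, or with a mean TPM of 50 or more, and were 5 with median-of-ratios or quantile scaling. Calls among all genes numbered 35 in the main fit and did not always move with those of the named genes. Without saline library 1, for example, they fell to 18 while the named genes kept 4. Leaving out 1 library gave 1 to 8 calls of named genes. The 1 came without dDAVP library 3, beside 7 of all genes. The 8, of which 1 was lower, came without saline library 4, beside 47 of all genes. With the replicate number as a block there were 0, beside 8 of all genes. The adjusted p was then 0.0576 for Cdk18, 0.0792 for Ache, 0.0825 for Ctsh and 0.142 for Dab1. To look for pairs, each library's log2(TPM + 1) was expressed as its deviation from the mean of its own group. These deviations correlated at 0.19, 0.23, 0.087 and −0.149 between same-numbered dDAVP and saline libraries. They were not above 0.1 in every pair, so the libraries were not taken as pairs. The deviations of dDAVP libraries 1, 2 and 3 did correlate best with the saline library of their own number, a hint from the data and not the design. Other limits for members gave 2 calls among 63 genes tested at a signal of 5, and 10 of 693 at 3. There were 2 of 113 at a difference of 0.75, 12 of 544 at 0.25 and 9 of 359 with the deposited fold. Relative to the distal median there were 18 of 991, 1 of them lower, under a limit chosen after seeing the data. The main limits gave 4 of 236, beside 0.695% of all 5035 genes. Fewer or more peaks then qualify by construction.

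The number of gaining peaks was 470 at a signal of 5, 5652 at 3, 789 at a difference of 0.75, 3886 at 0.25, 569 at the authors' adjusted p and 7786 relative to the distal median. In the same order their median width was 777, 352, 550, 523.5, 656 and 506 bp. The intron share was 55.84% at a signal of 3, 47.78% at a difference of 0.75, 48.86% at the authors' adjusted p and 57.67% relative to the distal median. The median distance to the named start was 38380 bp at a difference of 0.25 and 36040 bp relative to the distal median.

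Of 359 recomputed log2 differences of 26 genes, 15 changed sign, all in genes without a call. Leaving out 1 library gave ranges of −0.047 to 1.302 for Kap, −0.425 to 0.034 for Nr3c2, −1.246 to 0.132 for Dusp1, −1.23 to 0.206 for Pck1, −0.01 to 0.152 for Pde1a, −0.036 to 0.23 for Gata3, −0.063 to 0.259 for Nedd4l and −0.144 to 0.566 for Chn2. Causes were not tested. The β-catenin count was 0 under every alternative run. Motif searches in whole peaks and in short windows were not run.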

Other observations

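The unplaced scaffold JH584304 held 91 peaks of all kinds in the table, with a median difference of 0.99, and its gaining distal peaks spanned positions 1676 to 66645. A peak there annotated as the Pisd-ps3 promoter had a log2 signal of 10.9 in dDAVP ducts and 11.4 in saline ducts, the opposite direction. One peak named Aqp5 was placed on chromosome 9 in the deposited table, although the other 5 distal peaks of that name were on chromosome 15. It was losing and is no member.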
